A study of Mus musculus with 2 samples.

Results

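Genes of DNA repair and of the DNA damage checkpoint were followed by RNA-seq in CGR8, a line of mouse embryonic stem cells, in 1 library of cells transfected with a Set1a siRNA and 1 library of cells transfected with a negative siRNA, called control siRNA here. The set held 31 genes of 22421 with a symbol in the deposited tables, chosen by name: 16 act in homologous recombination and the processing of DNA ends, 7 in the Fanconi anaemia pathway, 3 in mismatch repair and 4 are checkpoint kinases, and Parp1 completed the set. Each gene was represented by its listed transcript with the highest summed level. The cells were grown without feeders on gelatin, in serum with leukaemia inhibitory factor. Both groups were transfected 2 times within 72 hours, and the cells carried no other change by the labels. The target gene Set1a, Setd1a by its current symbol, codes for SET1A, an enzyme that methylates lysine 4 of histone H3. The study's question was the effect of SET1A on gene expression as a whole.

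Homologous recombination repairs a broken chromosome by copying an intact sister: the ends are first resected to single strands, which are coated by replication protein A before they search for the intact copy. The Fanconi anaemia pathway unhooks cross-links between DNA strands and hands the break to recombination, and mismatch repair corrects copying errors behind the replication fork. The kinases ATM and ATR sense breaks and single-stranded DNA, and pass the signal to CHK2 and CHK1, which hold the cell cycle. Embryonic stem cells divide fast with a short first gap phase and are known to rely strongly on homologous recombination.

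Differences were small. No member differed by 2-fold or more between the Set1a siRNA library and the control siRNA library. Rad51c, Rad50, Fancd2, Brca2, Chek1 and Atr were lower in the Set1a siRNA library, at ratios of 0.636 to 0.818, and Fancb, Exo1, Mre11a and Msh6 were higher, at ratios of 1.16 to 1.58. For these 10 genes the difference was larger than counting error, while the ratios of the other 21 members had counting intervals that included 1. Intervals lay below 1 for 19.4% of the members and above 1 for 12.9%. Among the 11802 genes that averaged 1 RPKM or more, these shares were 11.1% and 11.9%. With 1 library per group there was no replicate check and no test, so every difference is between these 2 libraries.

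Levels are RPKM, read numbers scaled by transcript length and library depth. Read numbers were recovered from the steps of the values, at depths of about 6421000 reads for the Set1a siRNA library and 6656000 reads for the control siRNA library. The ratio of a gene is its Set1a siRNA RPKM over its control siRNA RPKM, and its counting interval is the exact Clopper-Pearson 95% interval from the reads of both libraries, which covers counting error only. The log2 fold was taken with 1 RPKM added to each value, which understates changes of low genes. For comparison, the 11802 genes that averaged 1 RPKM or more over both libraries, called measured genes, were used, and all 31 members were among them. Setd1a itself was at 11.97 RPKM in the Set1a siRNA library and 14.2 RPKM in the control siRNA library, a ratio of 0.846 (0.746 to 0.959). All 12 embryonic stem cell markers were present, at 43.2 to 1692 RPKM in the Set1a siRNA library and 38.4 to 2004 RPKM in the control siRNA library. Of 10 fibroblast markers, only Thy1 averaged 1 RPKM or more and 4 (Col1a2, Dcn, Postn and Twist2) were at 0 in both libraries. Their summed level was 5.13 RPKM in the Set1a siRNA library and 2.86 RPKM in the control siRNA library. The 12 lineage markers summed to 27.2 RPKM in the Set1a siRNA library and 27.97 RPKM in the control siRNA library, of which Otx2 gave most. The lineage marker Eomes was at 3.77 RPKM in the Set1a siRNA library and 2.55 RPKM in the control siRNA library, a ratio of 1.48 (1.06 to 2.08).

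Promoter windows from RefSeq on GRCm38.p6, 250 bases before to 50 bases after a gene start, were matched for 26 of the 31 members. No window was matched for Fancd2 and Rad50, which were lower, or for Exo1, which was higher. The windows of the other members whose counting intervals excluded 1 are shown because they let the lower and the higher genes be set side by side. The first 4 belong to genes that were lower in the Set1a siRNA library and the last 3 to genes that were higher. Capitals mark the E2F words TTTCCCGC, TTTGGCGC, TTTCGCGC and TTTGCCGC and the word CCAAT, on either strand. E2F factors drive genes of DNA synthesis, and CCAAT is the word bound by NF-Y.
Rad51c, chr11:87404905-87405204, minus strand: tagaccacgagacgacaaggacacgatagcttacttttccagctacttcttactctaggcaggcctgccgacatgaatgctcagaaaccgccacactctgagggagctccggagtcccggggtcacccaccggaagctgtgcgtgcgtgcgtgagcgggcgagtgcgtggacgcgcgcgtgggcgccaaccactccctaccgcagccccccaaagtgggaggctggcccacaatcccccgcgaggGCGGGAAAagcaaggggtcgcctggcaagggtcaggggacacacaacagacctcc
Brca2, chr5:150522371-150522670, plus strand: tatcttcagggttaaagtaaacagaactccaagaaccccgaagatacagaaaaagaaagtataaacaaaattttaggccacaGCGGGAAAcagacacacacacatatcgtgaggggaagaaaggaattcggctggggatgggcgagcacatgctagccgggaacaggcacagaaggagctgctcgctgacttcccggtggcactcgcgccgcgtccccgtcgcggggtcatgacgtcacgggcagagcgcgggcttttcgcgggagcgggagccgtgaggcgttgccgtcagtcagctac
Chek1, chr9:36726609-36726908, minus strand: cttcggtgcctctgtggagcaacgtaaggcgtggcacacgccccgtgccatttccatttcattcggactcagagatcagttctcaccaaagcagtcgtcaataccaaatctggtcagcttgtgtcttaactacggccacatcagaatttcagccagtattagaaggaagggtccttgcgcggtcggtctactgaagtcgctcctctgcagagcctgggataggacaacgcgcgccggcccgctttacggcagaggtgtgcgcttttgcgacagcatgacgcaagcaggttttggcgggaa
Atr, chr9:95857347-95857646, plus strand: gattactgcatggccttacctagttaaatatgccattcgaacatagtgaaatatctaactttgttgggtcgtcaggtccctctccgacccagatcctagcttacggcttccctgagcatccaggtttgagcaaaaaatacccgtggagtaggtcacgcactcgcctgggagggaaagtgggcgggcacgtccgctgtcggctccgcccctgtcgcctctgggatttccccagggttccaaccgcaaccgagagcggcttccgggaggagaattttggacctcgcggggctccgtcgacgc
Mre11a, chr9:14784404-14784703, plus strand: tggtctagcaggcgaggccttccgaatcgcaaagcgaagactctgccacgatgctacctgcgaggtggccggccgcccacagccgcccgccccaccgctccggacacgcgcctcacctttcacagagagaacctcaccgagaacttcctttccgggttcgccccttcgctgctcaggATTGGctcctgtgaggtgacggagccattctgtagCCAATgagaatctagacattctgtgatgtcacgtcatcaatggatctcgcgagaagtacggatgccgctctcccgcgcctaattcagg
Msh6, chr17:87974800-87975099, plus strand: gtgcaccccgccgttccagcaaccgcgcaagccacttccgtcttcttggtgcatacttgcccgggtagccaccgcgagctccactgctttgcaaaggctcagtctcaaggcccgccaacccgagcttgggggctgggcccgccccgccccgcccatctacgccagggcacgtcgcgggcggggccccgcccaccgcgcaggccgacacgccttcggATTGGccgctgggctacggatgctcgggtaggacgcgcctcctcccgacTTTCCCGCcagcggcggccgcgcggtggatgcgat
Fancb, chrX:164980342-164980641, plus strand: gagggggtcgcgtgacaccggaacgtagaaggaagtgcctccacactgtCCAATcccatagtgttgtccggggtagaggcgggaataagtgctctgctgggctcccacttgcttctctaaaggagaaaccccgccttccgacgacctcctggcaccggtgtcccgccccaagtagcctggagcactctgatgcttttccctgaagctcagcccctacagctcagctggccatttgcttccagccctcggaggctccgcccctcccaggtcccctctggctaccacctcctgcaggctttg

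Among these 7 windows, an E2F word lay in those of Rad51c, Brca2 and Msh6, and CCAAT in those of Mre11a, Msh6 and Fancb. Over all members with a window, 6 of 26 (23.1%) held an E2F word, against 4.58% of 9310 measured genes and 2.33% of all 27025 windows. CCAAT was in 17 of 26 windows (65.4%), against 40.4% of measured genes. The word TTTGAA, the CHR element of genes that peak in late cell cycle, was in 1 of 26 windows, that of Bard1, against 12.3% of measured genes. Lower and higher members were found with and without the E2F words and with and without CCAAT: 4 of the 6 members with an E2F word and 13 of the 20 without one had ratios under 1, as had 10 of the 17 with CCAAT and 7 of the 9 without. Only exact words that lie wholly inside a window were counted. The Chek1 window ends in GCGGGAA, the start of TTTCCCGC read on the other strand, and was counted as without an E2F word. A match is a description of the letters and not of binding.

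SET1 complexes are known to be directed to CpG-rich promoters through their subunit CFP1. The members' windows held a median of 23 CpG dinucleotides, from 3 in that of Fancl to 37 in that of Msh6, against a median of 21 for measured genes and 7 for all windows. The window of Rad51c held 24, those of Chek1 and Atr 22 each, that of Mre11a 26 and that of Fancb 13. By CpG number, the 3 members with 30 or more had a median log2 fold of 0.08, the 15 with 20 to 29 one of -0.06 and the 7 with 10 to 19 one of -0.08, and the 1 member under 10, Fancl, had 0.03. The medians of measured genes in these bins were 0.02, 0.02, 0.0041 and -0.02 in the same order.

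Levels of the 31 genes spanned 3.53 to 145 RPKM in the Set1a siRNA library and 2.87 to 151 RPKM in the control siRNA library, with medians of 10.9 RPKM in each. Parp1, Msh6, Rpa1 and Rpa2 stood apart above 25 RPKM, 24 genes had means between 5 and 25 RPKM, and Rad51c, Fancc and Fancb were below 5 RPKM. PARP1 binds broken strands, MSH6 recognises copying errors, and RPA1 and RPA2 coat single strands.

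**Figure D1:**
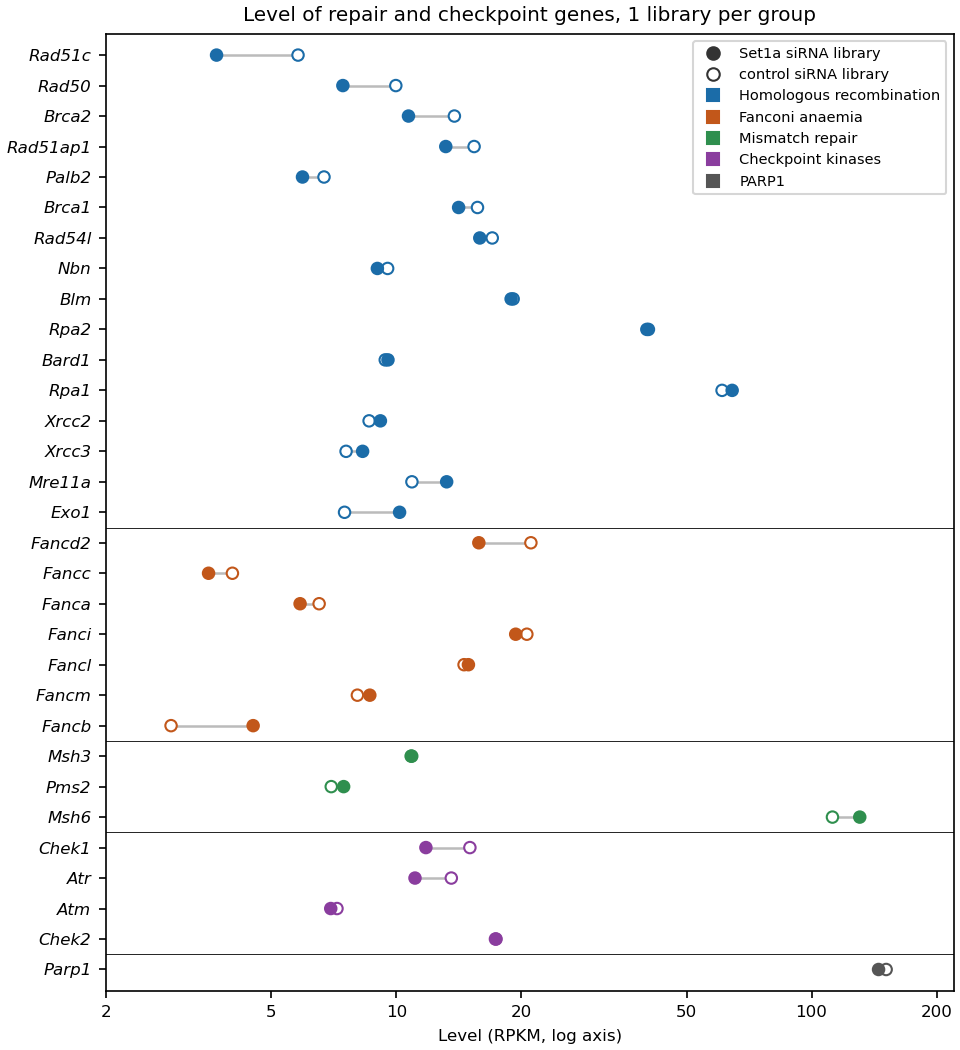
Level of each of the 31 genes in RPKM on a log axis, by class, with filled points for the Set1a siRNA library and open points for the control siRNA library, 1 library each. Parp1 and Msh6 lie above 100 RPKM in both libraries, and the widest gaps are those of Rad51c (3.69 RPKM in the Set1a siRNA library and 5.80 RPKM in the control siRNA library) and Fancb (4.52 RPKM in the Set1a siRNA library and 2.87 RPKM in the control siRNA library).

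In homologous recombination, BRCA1 and BARD1 form the ubiquitin ligase that acts at broken ends, PALB2 bridges BRCA1 to BRCA2, and BRCA2 acts in the step that prepares the single strand for pairing. Brca2 was at 10.7 RPKM in the Set1a siRNA library and 13.8 RPKM in the control siRNA library, a ratio of 0.775 (0.703 to 0.855) from 724 reads in the Set1a siRNA library and 968 reads in the control siRNA library. A second listed Brca2 transcript had a ratio of 0.779 (0.707 to 0.859). With 730 reads in the Set1a siRNA library and 971 reads in the control siRNA library, nearly the same numbers, it is no separate measurement. Brca1 was at 14.1 RPKM in the Set1a siRNA library and 15.7 RPKM in the control siRNA library, a ratio of 0.901 (0.806 to 1.01). Palb2 was at 5.94 RPKM in the Set1a siRNA library and 6.70 RPKM in the control siRNA library, a ratio of 0.888 (0.705 to 1.12). Bard1 was the one of these 4 genes with a ratio over 1, at 9.55 RPKM in the Set1a siRNA library and 9.40 RPKM in the control siRNA library, a ratio of 1.02 (0.870 to 1.18). Summed over the 4 genes the read ratio was 0.862 (0.809 to 0.918), a sum to which Brca2 gave the most reads.

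RAD51C pairs with XRCC3 in one complex and works with XRCC2 in another, and both complexes act in strand exchange. Rad51c had the lowest ratio of the set, at 3.69 RPKM in the Set1a siRNA library and 5.80 RPKM in the control siRNA library, a ratio of 0.636 (0.494 to 0.816) from 105 reads in the Set1a siRNA library and 171 reads in the control siRNA library. With the fewest reads that match its values, 70 in the Set1a siRNA library and 114 in the control siRNA library, the interval was 0.466 to 0.865. Of the measured genes, 2.31% had a lower log2 fold than Rad51c. The intervals of the genes for these partners included 1. Xrcc2 was at 9.16 RPKM in the Set1a siRNA library and 8.60 RPKM in the control siRNA library, a ratio of 1.06 (0.864 to 1.31). Xrcc3 was at 8.29 RPKM in the Set1a siRNA library and 7.57 RPKM in the control siRNA library, a ratio of 1.10 (0.849 to 1.42). The level of Rad51c over that of Xrcc3 was 0.445 in the Set1a siRNA library and 0.766 in the control siRNA library, a quotient of 0.581 (0.404 to 0.834) that no scaling of the libraries can change. Such quotients were taken for 10 pairs of members that act together or alternately, and 3 of them had intervals that excluded 1.

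RAD51AP1 helps strands to pair, RAD54L moves along the duplex during strand invasion, and BLM is the helicase that dissolves the joined molecules. Rad51ap1 was at 13.2 RPKM in the Set1a siRNA library and 15.4 RPKM in the control siRNA library, a ratio of 0.855 (0.686 to 1.06). Rad54l was at 15.9 RPKM in the Set1a siRNA library and 17.0 RPKM in the control siRNA library, a ratio of 0.933 (0.791 to 1.10). Blm was at 18.9 RPKM in the Set1a siRNA library and 19.1 RPKM in the control siRNA library, a ratio of 0.989 (0.879 to 1.11). All 3 intervals included 1. Both listed Blm transcripts had 558 reads in the Set1a siRNA library and 585 reads in the control siRNA library, equal numbers that do not tell the isoforms apart.

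End processing divided. MRE11, RAD50 and NBN form 1 complex that first binds and trims a break, and EXO1 is the nuclease that extends the resection. Mre11a was at 13.2 RPKM in the Set1a siRNA library and 10.9 RPKM in the control siRNA library, a ratio of 1.21 (1.008 to 1.46), with an interval that barely left 1. Rad50 was at 7.43 RPKM in the Set1a siRNA library and 9.97 RPKM in the control siRNA library, a ratio of 0.746 (0.630 to 0.881). Nbn was at 9.003 RPKM in the Set1a siRNA library and 9.53 RPKM in the control siRNA library, a ratio of 0.945 (0.748 to 1.19). Mre11a and Rad50 thus differed in direction between these libraries. The level of Mre11a over that of Rad50 was 1.78 in the Set1a siRNA library and 1.09 in the control siRNA library. The quotient was 1.63 (1.26 to 2.09). For Nbn over Rad50 the quotient was 1.27 (0.949 to 1.69), with an interval that included 1. Exo1 was at 10.2 RPKM in the Set1a siRNA library and 7.50 RPKM in the control siRNA library, a ratio of 1.36 (1.16 to 1.59) from 360 reads in the Set1a siRNA library and 275 reads in the control siRNA library. Dna2, a second resection nuclease from outside the set, was at 8.80 RPKM in the Set1a siRNA library and 5.87 RPKM in the control siRNA library. Its ratio was 1.5001 (1.22 to 1.85), and Dna2 was named for that value. It alone of 34 measured recombination genes outside the set had an interval above 1. Of these genes, 5 had intervals below 1 and 24 had ratios under 1. Over all measured genes, 11.1% had intervals below 1, 11.9% had intervals above 1 and 48.8% had ratios under 1. For replication protein A, Rpa1 was at 64.4 RPKM in the Set1a siRNA library and 60.9 RPKM in the control siRNA library, and Rpa2 was at 40.1 RPKM in the Set1a siRNA library and 40.5 RPKM in the control siRNA library. Their ratios were 1.06 (0.992 to 1.13) for Rpa1 and 0.991 (0.870 to 1.13) for Rpa2.

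In the Fanconi anaemia pathway a core complex, which includes FANCA, FANCB, FANCC, FANCM and the ligase FANCL, attaches ubiquitin to the pair FANCD2 and FANCI. Fancd2 was at 15.8 RPKM in the Set1a siRNA library and 21.1 RPKM in the control siRNA library, a ratio of 0.749 (0.665 to 0.843) from 485 reads in the Set1a siRNA library and 671 reads in the control siRNA library. Its partner Fanci was at 19.4 RPKM in the Set1a siRNA library and 20.6 RPKM in the control siRNA library, a ratio of 0.940 (0.838 to 1.05). The level of Fancd2 over that of Fanci was 0.815 in the Set1a siRNA library and 1.02 in the control siRNA library, a quotient of 0.797 (0.675 to 0.941). Fancb went the other way, at 4.52 RPKM in the Set1a siRNA library and 2.87 RPKM in the control siRNA library, a ratio of 1.58 (1.08 to 2.32). It had the highest ratio and the fewest reads of the set, 73 in the Set1a siRNA library and 48 in the control siRNA library.

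The other core genes differed by less than counting error. Fanca, at 5.86 RPKM in the Set1a siRNA library and 6.52 RPKM in the control siRNA library, had a ratio of 0.900 (0.729 to 1.11). Fancc, at 3.53 RPKM in the Set1a siRNA library and 4.03 RPKM in the control siRNA library, had a ratio of 0.876 (0.630 to 1.22). Fancm, the subunit that moves along DNA, was at 8.63 RPKM in the Set1a siRNA library and 8.06 RPKM in the control siRNA library, a ratio of 1.07 (0.934 to 1.23). Fancl, the ligase, was at 14.9 RPKM in the Set1a siRNA library and 14.6 RPKM in the control siRNA library, a ratio of 1.02 (0.879 to 1.19). Summed over the 5 core genes the read ratio was 1.033 (0.949 to 1.12), against 0.842 (0.776 to 0.914) for Fancd2 and Fanci.

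In mismatch repair, MSH6 and MSH3 act alternately in recognising an error, and PMS2 takes part in cutting the new strand. Msh6 was the second most abundant gene of the set, at 131 RPKM in the Set1a siRNA library and 112 RPKM in the control siRNA library, a ratio of 1.16 (1.11 to 1.22). Msh3 was at 10.86 RPKM in the Set1a siRNA library and 10.89 RPKM in the control siRNA library, a ratio of 0.997 (0.842 to 1.18). Pms2 was at 7.47 RPKM in the Set1a siRNA library and 6.97 RPKM in the control siRNA library, a ratio of 1.07 (0.911 to 1.26).

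All 4 checkpoint kinases had ratios under 1. Atr, the kinase that senses single-stranded DNA at stalled forks, was at 11.1 RPKM in the Set1a siRNA library and 13.6 RPKM in the control siRNA library, a ratio of 0.818 (0.732 to 0.913). Chek1, which encodes its effector CHK1, was at 11.8 RPKM in the Set1a siRNA library and 15.0 RPKM in the control siRNA library, a ratio of 0.784 (0.664 to 0.924). Atm, the kinase that senses breaks, was at 6.95 RPKM in the Set1a siRNA library and 7.196 RPKM in the control siRNA library, a ratio of 0.966 (0.834 to 1.12). Chek2, for its effector, was at 17.33 RPKM in the Set1a siRNA library and 17.38 RPKM in the control siRNA library, a ratio of 0.997 (0.834 to 1.19). The level of Chek1 over that of Chek2 was 0.680 in the Set1a siRNA library and 0.865 in the control siRNA library, a quotient of 0.786 whose interval, 0.616 to 1.004, included 1. For Atm over Atr the quotient was 1.18 (0.982 to 1.42), so that neither pair was separated beyond counting error. Parp1, which senses strand breaks and was the most abundant gene of the set, was at 145 RPKM in the Set1a siRNA library and 151 RPKM in the control siRNA library, a ratio of 0.959 (0.916 to 1.004).

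**Figure D2:**
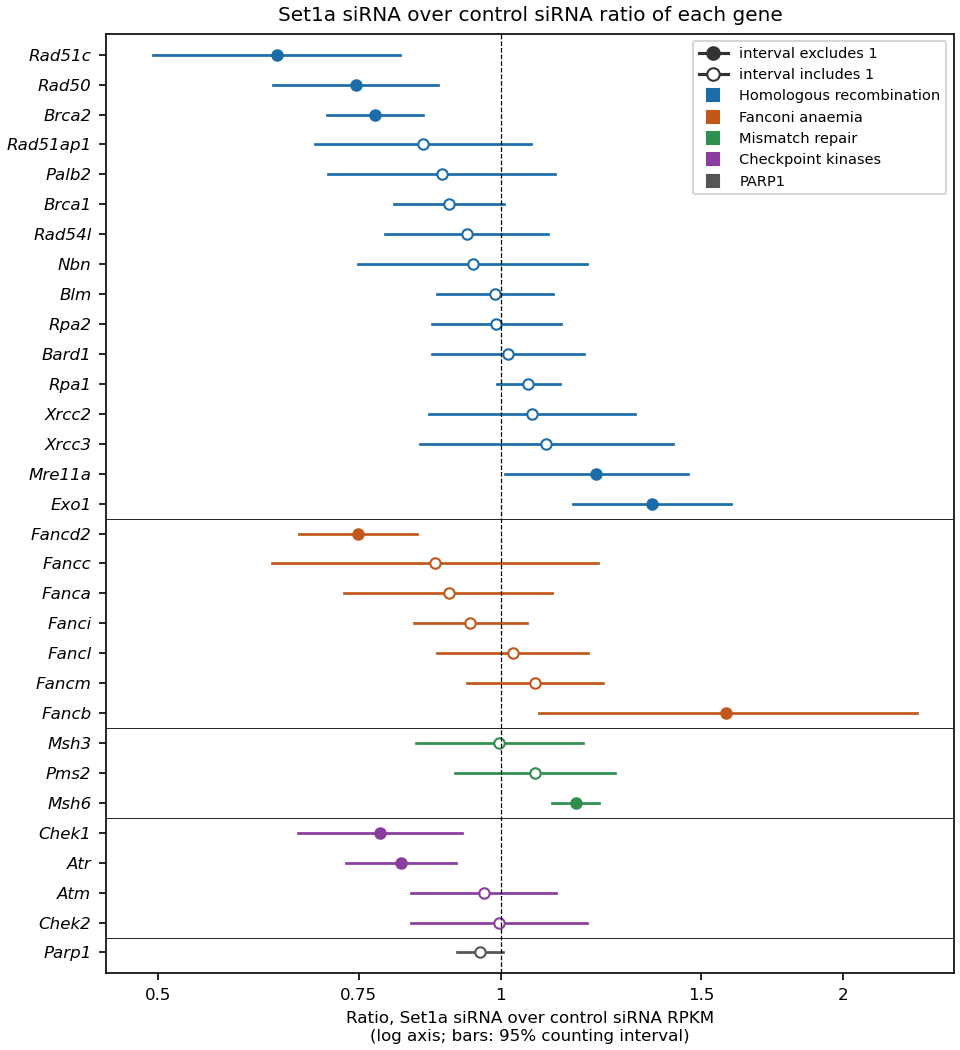
Ratio of Set1a siRNA over control siRNA RPKM for each of the 31 genes, by class, on a log axis, with bars for the 95% counting interval and filled points where it excludes 1. Intervals of 6 genes lie below 1, with Rad51c lowest at 0.636, and intervals of 4 genes lie above 1, with Fancb highest at 1.58.

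Counted over the set, 20 of 31 members (64.5%) had a ratio under 1 and 11 (35.5%) a ratio over 1, against 48.8% and 51.2% of all measured genes. Counting intervals lay below 1 for 6 members (19.4%) and above 1 for 4 (12.9%), against 11.1% and 11.9% of all measured genes. As such a count depends on reads, it was also taken over the 8793 genes with summed reads in the members' range, 121 to 7415. There 12.6% lay below 1 and 13.1% above, and 49.9% of ratios were under 1. This wide range does not match read numbers, of which the members had a median of 610 and all measured genes one of 331. With 1 RPKM added to each value, 5 members were lower by 20% or more, Rad51c, Fancd2, Rad50, Brca2 and Chek1, and 2 were higher by 25% or more, Fancb and Exo1. These limits, of equal size on the log2 scale, took in 8.14% of all measured genes as lower and 10.4% as higher. No member passed 1.5-fold on this scale, against 1.75% of measured genes lower and 2.77% higher, or 2-fold, against 0.407% lower and 0.771% higher; at such shares a count of 0 among 31 genes says little. The median log2 fold was -0.04 for the members and 0.0063 for all measured genes, and the members' reads summed to a ratio of 0.987 (0.967 to 1.007).

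By class, and with lower and higher standing for ratios under and over 1 from here on, the median log2 fold was -0.04 for homologous recombination, with 10 members lower and 6 higher, and -0.08 for the Fanconi anaemia pathway, with 4 lower and 3 higher. It was 0.09 for mismatch repair, with 1 lower and 2 higher, and -0.16 for the checkpoint kinases, with 4 lower and 0 higher. Classes of 3 to 16 genes allow no more than this description. The read ratios of the classes were 0.966 (0.934 to 0.999), 0.929 (0.876 to 0.985), 1.14 (1.09 to 1.195) and 0.871 (0.812 to 0.935) in the same order, and Msh6 gave most of the reads behind the mismatch repair value. Fancd2, with 485 of 2146 Fanconi reads in the Set1a siRNA library and 671 of 2395 in the control siRNA library, alone of its class had an interval below 1. The recombination interval ends next to 1. It rests on the read numbers chosen where several matched, as for Brca2 and Rpa1, and was not taken with the fewest.

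Among all measured genes the log2 fold moved with the composition and length of the transcripts. Members had a median transcript length of 4263 nucleotides and a median GC content of 46.2%, against 2755 nucleotides and 50.4% for all measured genes. Among all measured genes, 61.5% of those under 42% GC and 55.9% of those from 42% to 46% GC had a log2 fold under 0, against 54.5% of those from 46% to 50% GC and 41.7% of those at or above 50% GC. Of the members, 2 of 4, 7 of 9, 7 of 13 and 4 of 5 were lower in the same bins, numbers too small to show or exclude such an order. By length, 51.8% of measured genes under 2000 nucleotides were lower, 46.9% of those from 2000 to 4000, 46.5% of those from 4000 to 8000 and 57.9% of longer ones, against 2 of 2, 8 of 13, 8 of 14 and 2 of 2 members. The 2 longest are Brca2 and Atr. After removal of the trend that a cubic fit on GC and log length gave, 17 members were lower and 14 higher. Their median log2 fold was then -0.02. Of all measured genes, 49.8% were lower after the same removal, with a median log2 fold of 0.00077.

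**Figure D3:**
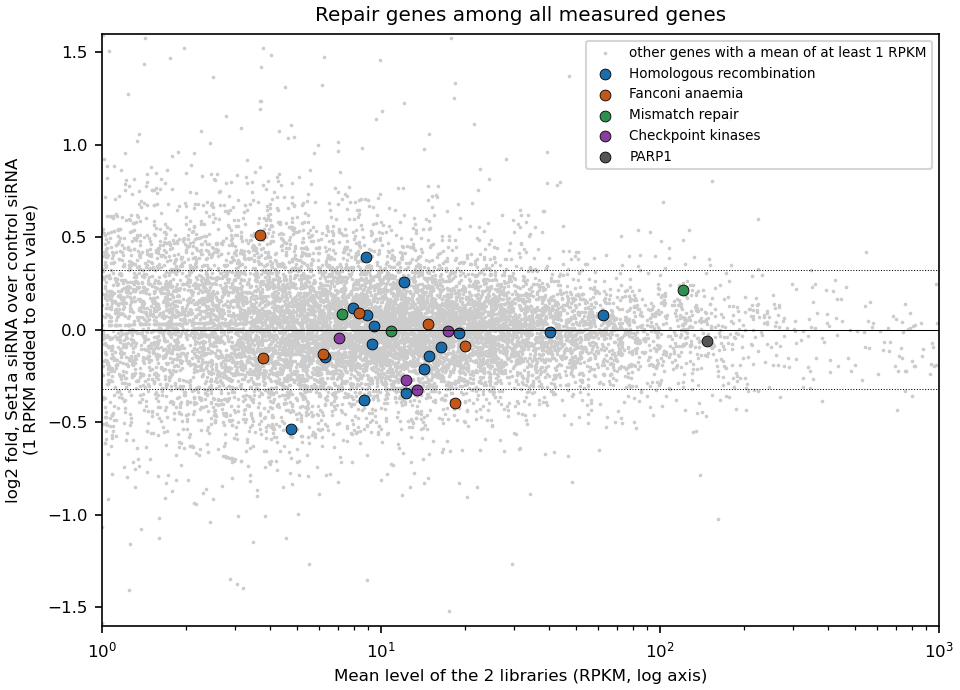
Log2 fold of Set1a siRNA over control siRNA against the mean level in RPKM (log axis) for the 31 genes, coloured by class, and all measured genes in grey, with dotted lines at the 20% lower and 25% higher limits and 145 genes outside the axes. The members lie within the cloud of other genes, from -0.54 for Rad51c to 0.51 for Fancb.

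Other genes of the same pathways were taken from lists chosen with earlier results of these data known. Genes named from these lists were picked by their values. Together 134 of 136 listed genes were measured. Of these, 84 (62.7%) had a ratio under 1, against 48.8% of all measured genes. Counting intervals lay below 1 for 23 (17.2%) and above 1 for 9 (6.72%), against 11.1% and 11.9% of all measured genes. Among 34 other recombination genes 24 were lower, with a median log2 fold of -0.09. They included Rad54b, a relative of Rad54l, at 7.54 RPKM in the Set1a siRNA library and 10.99 RPKM in the control siRNA library, a ratio of 0.686 (0.550 to 0.854). The helicase genes Recql5 and Rtel1 had ratios of 0.711 (0.557 to 0.906) and 0.788 (0.710 to 0.874). Among 13 other Fanconi genes 7 were lower and the median was -0.0049. Faap24, which partners FANCM, had a ratio of 0.613 (0.408 to 0.911) from 42 reads in the Set1a siRNA library and 71 reads in the control siRNA library. Among 12 other mismatch repair genes 9 were lower, with a median of -0.11, and Mlh3 had a ratio of 0.718 (0.613 to 0.841). Intervals of 5 of these 12 genes lay below 1 and of 1 above 1. Their summed read ratio was 0.963 (0.938 to 0.988), on the other side of 1 from that of the 3 mismatch repair members. Of 24 other checkpoint and damage signalling genes 12 were lower and 12 higher. The ubiquitin ligase gene Rnf8, with a ratio of 1.40 (1.196 to 1.65), and Telo2, which stabilises ATM and ATR, with a ratio of 1.47 (1.10 to 1.98), were among the higher ones. Intervals of 4 genes of this list lay above 1 and of 6 below 1; those below 1 included Tti1, for the partner of TELO2, at 0.794 (0.679 to 0.928), and Rnf168, for a ligase that acts with RNF8, at 0.798 (0.698 to 0.911), both named after their values were seen.

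The remaining pathways differed among themselves. In non-homologous end joining, which rejoins broken ends directly, 9 of 11 genes were lower and the median was -0.17. Xrcc5, for the KU80 subunit of the ring that holds a broken end, was at 32.7 RPKM in the Set1a siRNA library and 43.3 RPKM in the control siRNA library, a ratio of 0.756 (0.675 to 0.846). Its partner Xrcc6 was at 22.0 RPKM in the Set1a siRNA library and 22.3 RPKM in the control siRNA library, a ratio of 0.987 (0.840 to 1.16); it was chosen after its values were seen. In base excision repair 15 of 21 genes were lower, with a median of -0.10. In nucleotide excision repair 8 of 19 were lower, with a median of 0.04, and no gene passed either limit.

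Genes of DNA synthesis, many of which are driven in the same phase of the cell cycle as repair genes, were split evenly. Of 25 S phase genes 12 were lower and 13 higher, with a median of 0.0032, and the higher ones included Ccne1, the cyclin of entry into S phase, with a ratio of 1.26 (1.11 to 1.45), and E2f2 with 1.48 (1.07 to 2.05). Intervals of 4 S phase genes lay above 1 and of 5 below 1, against 11.9% and 11.1% of all measured genes. The 5 below 1 were those of Gins1, Pola1, Tyms, Mcm6 and Mcm3, at ratios of 0.797 to 0.944. These 5 were named after their values were seen. Of 16 mitosis genes 5 were lower and 11 higher, with a median of 0.05, and Cdc20 and Aurka had ratios of 1.31 (1.21 to 1.42) and 1.29 (1.14 to 1.45). The p53 targets, genes induced downstream of the checkpoint kinases, were higher in 17 of 19 cases, with a median of 0.29. Of all measured genes, 51.2% were higher. Intervals of 11 p53 targets lay above 1 and of 0 below 1. Mdm2, which encodes the ligase that removes p53, was at 25.1 RPKM in the Set1a siRNA library and 16.7 RPKM in the control siRNA library, a ratio of 1.51 (1.31 to 1.74). Plk2, Btg2, Ccng1, Phlda3 and Trp53inp1 had ratios of 1.53 to 2.20.

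**Figure D4:**
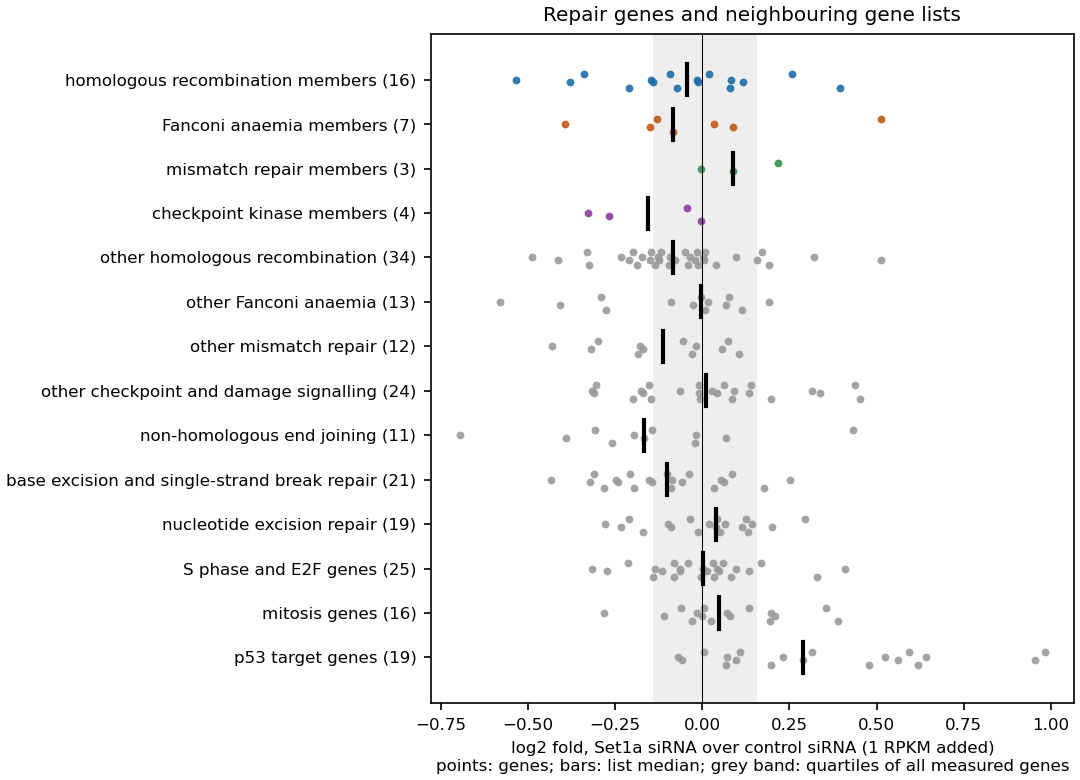
Log2 fold of Set1a siRNA over control siRNA for each measured gene (points) of the 4 classes with several members, coloured, and of the neighbouring lists, grey, with black bars for list medians and the grey band for the quartiles of all measured genes. Medians of the 4 classes run from -0.16 for checkpoint kinases to 0.09 for mismatch repair, and the p53 targets lie highest at 0.29.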

How the data were processed

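RNA of 2 libraries of CGR8 cells, 1 per siRNA, was sequenced, and groups follow the transfection label. The tables deposited by the authors list 28430 RefSeq transcripts with 1 value each and no header; the unit, RPKM, was inferred from these deposited values. The submitters' processing notes name build mm9 and, with no role or order, SAMtools 0.1.16, TopHat2 2.0.12, TopHat and CASAVA. How reads were counted, strand and multiple matches included, is not given in the sources used here, so reads of overlapping antisense transcripts cannot be told apart.

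Of 4679 transcripts with few reads, 96.1% had value ratios that were ratios of whole numbers, within a relative error of 6e-06, at a depth ratio of 1.03654 (control over Set1a siRNA), against 0.449% at other depth ratios. Whole reads were then found from GENCODE M21 transcript lengths. For 20 members 1 number of reads matched, and for 11 several did, of which the one nearest the annotated length was used.

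Symbols came from the GRCm38.p6 RefSeq table and GENCODE for 27957 transcripts. As that build differs from mm9, its coordinates serve only the promoter windows; Rad51c and Rad54l have 2 windows, and the upstream one was used. The members and lists were chosen with earlier results of these data known. Named were all members, and up to 4 genes of each other list (6 for p53 targets and S phase genes) lower by 20% or higher by 25% with an interval that excludes 1. The scripts, in Python 3.11.15 with numpy 2.4.6, scipy 1.17.1 and pandas 2.3.3, were tested on simulated counts.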

Additional observations from a re-analysis of the deposited data

Results flagged for a closer look

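A second listed transcript of Fancb, which entered only alternatives on the choice of transcript, was at 4.425 RPKM in the Set1a siRNA library and 2.85 RPKM in the control siRNA library. Its ratio was 1.55 (1.10 to 2.22), and it drew attention as a signal in a row outside the comparison, above its control level. It is an isoform of the gene reported above and no separate measurement.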

How the results depend on the processing

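The median of the members, -0.04, was negative under each of 10 alternatives, from -0.05 with median of ratios scaling to -0.02 with the GC and length fit subtracted, and the class medians also kept their side of 0. Each of 217 values of single members under another setting differed from the reported one by less than its counting interval. The count of members lower by 20% or more, 5, was 1 with a pseudocount of 5 RPKM, 3 with that fit subtracted, and 0 at 1.5-fold and at 2-fold. The count higher by 25% or more, 2, was 0 with a pseudocount of 5 RPKM, 1 with a floor of 5 RPKM, 0 at 1.5-fold and at 2-fold, and 4 when called by the counting interval. A larger pseudocount, a higher floor and a higher fold take in fewer genes by construction; the cause of the shift with the fit subtracted was not tested. In an alternative chosen after seeing the data, with the fewest whole reads that match the values, 6 intervals still lay below 1 and 4 above. No paired analysis was possible because both groups had a single library. Low read numbers limit Fancb, Fancc and Xrcc3 most. They also limit Rad51c if its fewest matching reads hold, 70 in the Set1a siRNA library and 114 in the control siRNA library.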
